A study of Mus musculus with 10 samples.

Results

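The genes described here are 38 named members of the heat shock response and the unfolded protein response, the protein-folding programmes of the cell, in mouse lung. They comprise 13 cytosolic heat shock genes, 3 small heat shock genes, 3 mitochondrial chaperone genes and 19 genes of the endoplasmic reticulum (ER) stress response. A member was measured where at least 1 probe set carried its symbol and no other, and where several did, the brightest over the 10 arrays stood for the gene. By this rule 36 of the 38 members were measured, among 12393 genes in all. Hsf1 and Hsp90ab1 had no probe set carrying their symbol alone and are not analysed here.

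Whole lungs of male C57BL/6 mice, 6 to 8 weeks old, were studied after chronic intermittent hypoxia (5 arrays) or under normoxia as the control (5 arrays), with 1 array per animal. No genetic change or other agent is named for either group, and no timing or depth of the hypoxia is stated in the labels. The comparison asks which transcripts differ in the lung of mice kept under intermittent hypoxia. Levels were RNA hybridisation signals from Affymetrix Mouse Genome 430A arrays on a log2 scale, so a difference of 1 is a doubling. In such a whole-tissue sample, fewer cells of a type and less RNA per cell cannot be told apart.

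Heat shock proteins are chaperones that hold unfolded proteins in solution and help them to fold. In the cytosol and nucleus, heat shock factor 1 binds heat shock elements in DNA and raises chaperone transcription when unfolded proteins accumulate. In the ER, the sensors IRE1, PERK and ATF6 respond to unfolded secretory proteins. The active forms of XBP1 and ATF6 raise ER chaperones, and PERK acts through ATF4 and CHOP (the product of Ddit3) on genes of amino acid supply and cell death.

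Array medians ran from 7.69 to 7.73. The standard deviation over probe sets was 1.89 to 1.93 on normoxia arrays 2 to 4 and 1.99 to 2.05 on the other 7 arrays, so these 3 control arrays stood apart. All 8 markers of lung epithelium and endothelium were measured, at a mean level of 10.50 or above, and none passed the test. Cardiac muscle markers were present on every array (12 measured, summed level 14.2 to 14.4 under normoxia and 13.8 to 14.5 under hypoxia, none passing). Skeletal muscle markers (10 measured, 1 lower, median difference -0.86) summed to 14.5 on normoxia array 2. They summed to 10.4 to 10.9 on the other normoxia arrays and 10.1 to 10.4 under hypoxia. Red cell markers (4 of 8 measured, 1 lower) summed to 11.1 to 12.3 under normoxia and 10.7 to 11.2 under hypoxia. Adipose markers (6 of 9 measured, 1 lower) summed to 11.5 to 13.2 under normoxia and 10.5 to 11.8 under hypoxia. Of 15 glucocorticoid-induced genes 11 were lower under hypoxia and none higher, with summed levels of 15.0 to 15.3 and 14.6 to 14.8. The part of any of these markers in the results below was not tested.

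Under intermittent hypoxia the folding genes did not move as 1 block. Of 36 measured members, 6 rose and 2 fell with limma's test at an adjusted p below 0.05 over all 22626 probe sets. These are 16.7% and 5.56% of the members, where 8.93% and 3.6% of all 12393 genes were called higher and lower. The 6 that rose were Hspa4, Dnajb4, Hspa9, Calr, Canx and Pdia6, by 0.29 to 0.43 on the log2 scale, which is 1.22 to 1.35 times. The 2 that fell were Hspa2 and Hsph1, by 0.76 and 0.60. The other 28 members did not pass, and their differences ran from -0.37 to 0.51. The median difference was 0.076 over the 36 members and 0.014 over all genes (-0.022 and -0.014 after quantile normalization of the 10 arrays).

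The count of risen members depended on how the arrays were scaled and on single arrays. After quantile normalization of the 10 arrays, 1 member rose (Calr) and 5 fell (Hspa2, Hsph1, Hspa8, Dnaja1 and Atf6), against 720 genes higher and 591 lower in all. The number that rose was 4, 2 and 0 without normoxia array 2, 3 or 4, and 1, 1, 3 and 2 without hypoxia array 1, 2, 3 or 4. The number that fell was 1 when any of normoxia arrays 1 to 4 or of hypoxia arrays 1, 3 and 5 was left out. With only normoxia arrays 1 and 5 as controls, 0 members rose by limma, Hspa2 alone fell, and 16 probe sets passed in all.

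**Figure D1:**
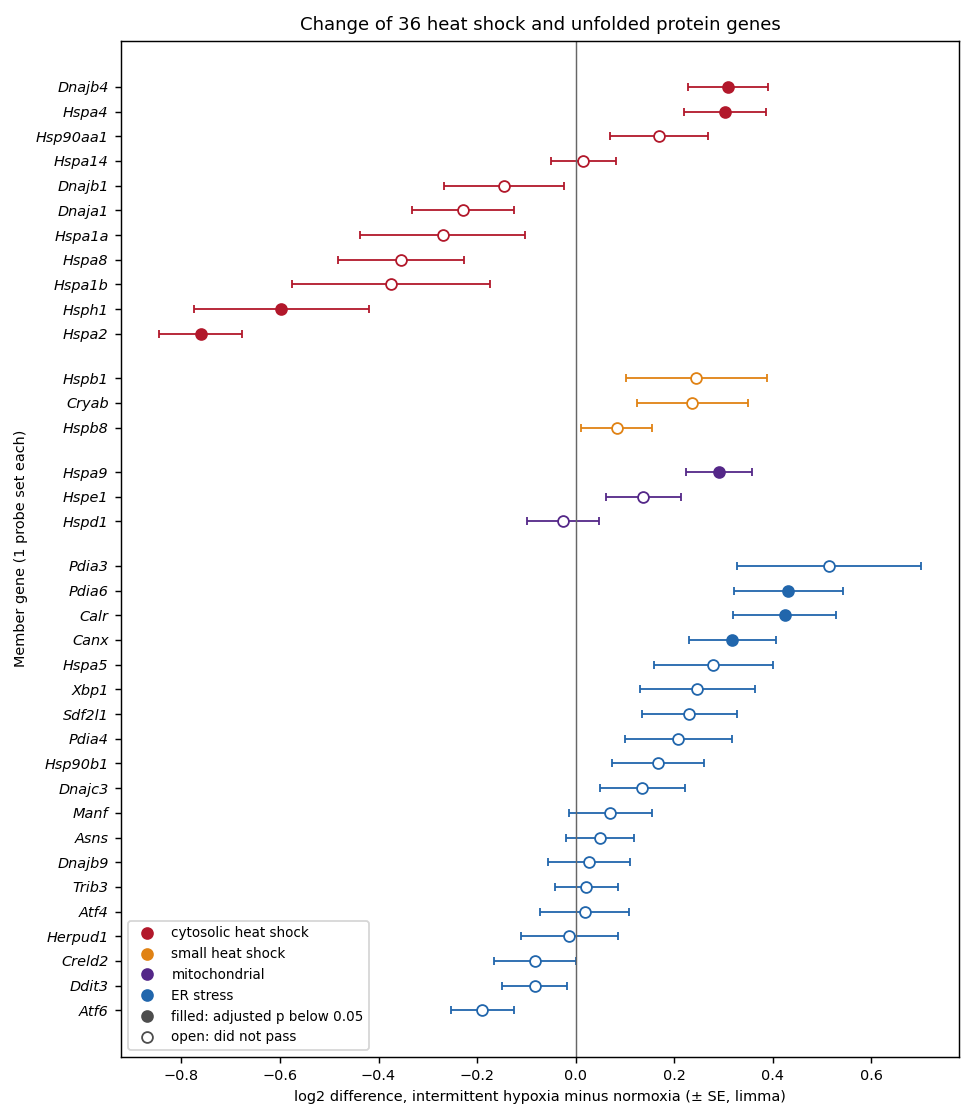
Difference in log2 level, intermittent hypoxia minus normoxia, for each of the 36 measured members, grouped into cytosolic, small, mitochondrial and ER genes, with bars of 1 standard error of the limma fit in each direction (5 arrays per group). Filled points passed at an adjusted p below 0.05 over all 22626 probe sets. Hspa2 and Hsph1 lie farthest to the left, and 6 filled points lie between 0.29 and 0.43.

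Among the 11 measured cytosolic genes 2 rose (Hspa4 and Dnajb4), 2 fell (Hspa2 and Hsph1) and 7 did not pass, and the median difference was -0.23. Hspa2 encodes an HSP70 chaperone best known from male germ cells and also made in other tissues. It measured 8.61, 8.45, 8.47, 8.33 and 8.43 on normoxia arrays 1 to 5 and 7.59, 7.65, 7.88, 7.86 and 7.51 on hypoxia arrays 1 to 5. Every hypoxia array was below every normoxia array. The mean was 8.46 ± 0.10 (SD, n = 5) under normoxia and 7.70 ± 0.17 (SD, n = 5) under hypoxia, a fall of 0.76 (SE 0.08) to 0.590 times the control (limma adjusted p = 0.00137). This was the largest difference among the members in either direction. It passed without any single array (adjusted p from 0.00116 to 0.00641), after quantile normalization (-0.79, adjusted p = 0.000667) and without normoxia arrays 2 to 4 (-0.82, adjusted p = 0.0473). Hspa2 has 1 probe set on the array.

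Hsph1 encodes HSP105, a large HSP110-type protein that exchanges nucleotide on HSP70. It measured 9.64, 9.95, 10.04, 9.49 and 9.50 under normoxia and 8.92, 9.51, 8.92, 9.61 and 8.67 under hypoxia. The hypoxia arrays split, with arrays 2 and 4 inside the normoxia range and the other 3 below it. The fall was 0.60 (SE 0.18, limma adjusted p = 0.0461), and the second probe set of the gene also passed (-0.49, adjusted p = 0.0477). The call was lost without any one of normoxia arrays 1 to 4 or hypoxia arrays 1, 3 and 5 (adjusted p up to 0.116). Without normoxia arrays 2 to 4 the difference was -0.44 (adjusted p = 0.560).

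Hspa4 encodes APG-2, another exchange factor of the HSP110 type. It measured 9.41, 9.44, 9.14, 9.15 and 9.26 under normoxia and 9.74, 9.67, 9.56, 9.56 and 9.40 under hypoxia. The groups met only at hypoxia array 5, which lay below normoxia arrays 1 and 2. It rose by 0.30 (SE 0.08, limma adjusted p = 0.0355), but its dimmer probe sets measured -0.17 and -0.11 and did not pass. The mean of the 3 probe sets differed by 0.0099, so the call rests on 1 probe set.

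Dnajb4 encodes an HSP40 co-chaperone, which delivers substrates to HSP70. It measured 10.32, 10.28, 10.43, 10.12 and 10.47 under normoxia and 10.56, 10.70, 10.81, 10.54 and 10.55 under hypoxia. All 5 hypoxia arrays were above the highest normoxia array. It rose by 0.31 (SE 0.08, limma adjusted p = 0.0297), with 0.27 on its second probe set (adjusted p = 0.0718). After quantile normalization the difference was 0.15 (adjusted p = 0.217).

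Hspa1a and Hspa1b, which encode the inducible HSP70, did not pass. Hspa1b measured 9.13, 9.31, 10.23, 8.91 and 9.09 under normoxia and 8.88, 9.10, 9.19, 8.69 and 8.94 under hypoxia. Normoxia array 3 was the highest of the 10 for both genes, and the groups overlapped. The differences were -0.37 (SE 0.20, limma adjusted p = 0.221) for Hspa1b and -0.27 (SE 0.17, limma adjusted p = 0.289) for Hspa1a. The 2 genes are near-identical copies, so which of them a probe set measured is uncertain.

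Hspa8 encodes the constitutive HSP70, and its difference was -0.35 (SE 0.13, limma adjusted p = 0.0828). All 4 of its probe sets were lower under hypoxia and 1 of them passed (-0.41, adjusted p = 0.0259). Its main probe set passed after quantile normalization (-0.50, adjusted p = 0.0182). The HSP40 genes Dnaja1 (-0.23, SE 0.10) and Dnajb1 (-0.14, SE 0.12), Hsp90aa1 of inducible HSP90 (0.17, SE 0.10) and Hspa14 (0.015) did not pass, with Dnaja1 at -0.39 (adjusted p = 0.0409) after quantile normalization.

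**Figure D2:**
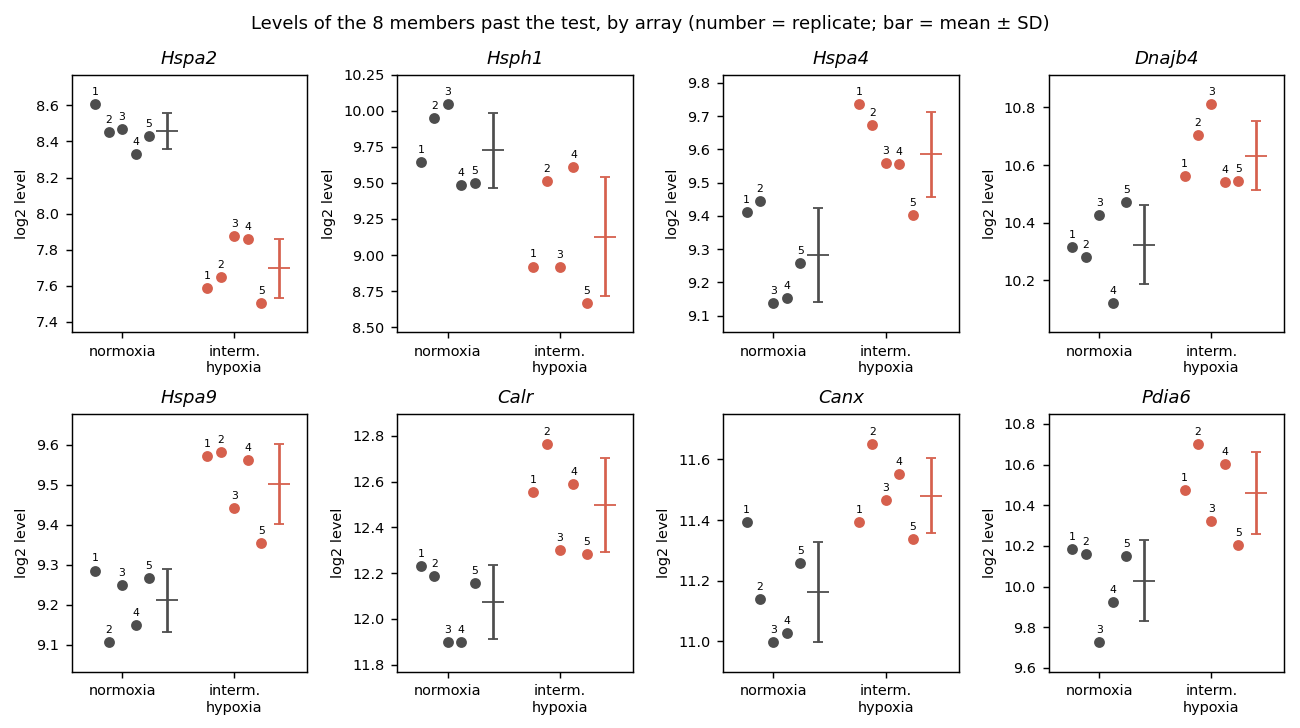
Log2 level on each array for the 8 members that passed, with 1 panel per gene, normoxia on the left and intermittent hypoxia on the right. Points are arrays (5 per group), and bars give the mean and SD. The groups are separate for Hspa2, Dnajb4, Hspa9, Calr and Pdia6 and overlap for Hspa4, Hsph1 and Canx.

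Of 6 heat shock pairs tested for co-variation between animals, 1 passed, and it joins the 2 inducible HSP70 genes that the probe sets may not separate. After subtracting each group's mean from its 5 arrays, Hspa1a followed Hspa1b over the 10 arrays with Pearson's r = 0.93 (exact permutation p = 0.00174, adjusted p = 0.00984 over the 17 pairs computed) and Spearman's rho = 0.88 (exact permutation p = 0.00354). Without normoxia array 3 and hypoxia array 4, the 2 arrays farthest from the median of Hspa1b, r was 0.71, and without normoxia array 3 alone 0 pairs passed (exact permutation, adjusted over the pairs). Normoxia array 3 stood 0.90 above its group's mean for Hspa1b, 0.63 for Hspa1a, 0.28 for Dnajb1 and 0.24 for Dnaja1. The correlation with Hspa1b was 0.70 for Dnajb1 and 0.68 for Dnaja1, which did not pass (exact permutation, adjusted p = 0.0577 and 0.0832) and did after quantile normalization (r = 0.82 and 0.83, adjusted p = 0.0336 and 0.0491). Hsph1, Hspa8 and Hsp90aa1 had r of 0.32, 0.19 and -0.12 with Hspa1b.

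The 250 bases before the transcription start were read from the RefSeq promoter table (build GRCm38.p6), which held 30 of the 38 members. Those of Hspa1a and Hspa1b were identical at 247 of 250 bases (98.8%). The following stretches show how alike the promoters are, with a pair of heat shock units, GAANNTTC, in capitals, read 5′ to 3′ towards each gene. Both genes lie on the minus strand, at chr17:34972233-34972280 and chr17:34959315-34959362, and the motif starts 104 bases before the start of transcription in both.
Hspa1a: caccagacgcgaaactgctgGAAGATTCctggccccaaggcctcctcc
Hspa1b: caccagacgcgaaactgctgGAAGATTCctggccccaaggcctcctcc
GAANNTTC, which reads the same on both strands, was found before Hspa1a, Hspa1b, Dnaja1, Hspb1, Hspd1, Hspe1 and Asns. That is 7 of 30 members with a promoter window, where 7.73% of all 27025 genes with a window had it. None of these 7 genes passed in the comparison of hypoxia with normoxia, where 12.5% of all genes were called in either direction. Dnaja1 passed after quantile normalization (limma adjusted p = 0.0409). Hspa2, Hsph1, Hspa4 and Dnajb4 are not among the genes with this motif. Members without a window could not be searched, so a missing motif and a missing window are not told apart here, except for Hsph1, which had one. Sequence beyond the 250 bases was not searched.

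No small heat shock gene passed. These encode chaperones of the α-crystallin type, which hold unfolded proteins without using ATP and are abundant in muscle. Hspb1, which encodes HSP25, measured 12.04, 12.14, 11.97, 12.38 and 12.48 under normoxia and 12.24, 12.87, 12.07, 12.62 and 12.44 under hypoxia. The groups overlapped, with a difference of 0.24 (SE 0.14, limma adjusted p = 0.261). Hspb8 measured 9.23, 9.33, 9.14, 9.08 and 9.24 under normoxia and 9.16, 9.39, 9.37, 9.18 and 9.33 under hypoxia. These values also overlapped, with a difference of 0.083 (SE 0.07, limma adjusted p = 0.449).

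Cryab encodes αB-crystallin. It measured 10.79, 11.06, 10.41, 10.51 and 10.69 under normoxia and 10.99, 11.14, 10.90, 10.78 and 10.85 under hypoxia. All hypoxia arrays but number 4 lay above 4 of the normoxia arrays, and normoxia array 2 lay among the hypoxia values. The difference was 0.24 (SE 0.11, limma adjusted p = 0.170). A second, dimmer probe set of Cryab passed (0.47, SE 0.09, adjusted p = 0.0118, and 0.32, adjusted p = 0.0163, after quantile normalization), and another measured 0.027. Normoxia array 2, the highest control on the brightest Cryab probe set, was also the array with the highest skeletal muscle markers. On the probe set that passed, normoxia array 2 measured 10.26, below normoxia arrays 1, 4 and 5 (10.56, 10.41 and 10.53). The part of muscle in these values was not tested.

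Among the 3 mitochondrial chaperones Hspa9 rose and the others did not pass. Hspa9 encodes mortalin, the mitochondrial HSP70 that pulls proteins through the inner membrane. It measured 9.29, 9.11, 9.25, 9.15 and 9.27 under normoxia and 9.57, 9.58, 9.44, 9.56 and 9.36 under hypoxia. Every hypoxia array was above every normoxia array. The rise was 0.29 (SE 0.07, 1.22 times, limma adjusted p = 0.0183), and the second of its 4 probe sets by level also passed (0.26, adjusted p = 0.0321). The 2 dimmer ones measured -0.062 and -0.046, and the mean of all 4 differed by 0.11 (adjusted p = 0.135). The call was lost without normoxia array 4 (adjusted p = 0.0541) and kept without each of the other 9 arrays, and after quantile normalization the difference was 0.19 (adjusted p = 0.0542).

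Hspd1 and Hspe1 encode HSP60 and HSP10, the ring and the lid of the mitochondrial folding chamber. Hspd1 measured 10.93, 10.87, 10.89, 10.78 and 10.99 under normoxia and 10.73, 11.07, 10.82, 10.90 and 10.81 under hypoxia. The normoxia range lay inside the hypoxia range, and the difference was -0.026 (SE 0.07, limma adjusted p = 0.832). Hspe1 measured 10.34, 10.32, 10.34, 10.28 and 10.43 under normoxia and 10.37, 10.66, 10.31, 10.61 and 10.45 under hypoxia. Hypoxia arrays 2 and 4 stood clear of the controls and the other 3 were close to them, and the difference was 0.14 (SE 0.08, limma adjusted p = 0.233). The 2 genes are divergent neighbours, and their promoter windows share 1 stretch with 4 heat shock units in a row, which holds 2 overlapping matches to a pattern of 3 units. It is shown because no other member has such a match, on the Hspe1 strand (plus, chr1:55088039-55088096) with the units in capitals.
Hspe1: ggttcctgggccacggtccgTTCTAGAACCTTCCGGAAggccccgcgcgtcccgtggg
The pattern of 3 units (GAA, TTC and GAA, with any 2 bases between neighbours, on either strand) occurred before these 2 members. Of all 27025 genes with a promoter window 0.514% had it. It overlaps the pair pattern above by construction.

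Of 19 measured ER genes 3 rose (Calr, Canx and Pdia6), none fell and 16 did not pass, and 15 of the 19 had a positive difference, with a median of 0.14. After quantile normalization the median was 0.0091, 1 member rose and 1 fell. Calr encodes calreticulin, the soluble lectin chaperone and calcium store of the ER lumen. It measured 12.23, 12.19, 11.90, 11.90 and 12.16 under normoxia and 12.55, 12.77, 12.30, 12.59 and 12.28 under hypoxia. The groups did not overlap. The rise was 0.42 (SE 0.10, 1.34 times, limma adjusted p = 0.0241), and all 3 probe sets of the gene passed. After quantile normalization it was 0.28 (adjusted p = 0.0410), and without normoxia arrays 2 to 4 it was 0.30 (adjusted p = 0.450).

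Canx encodes calnexin, the membrane-bound partner of calreticulin. It measured 11.40, 11.14, 11.00, 11.03 and 11.26 under normoxia and 11.40, 11.65, 11.47, 11.55 and 11.34 under hypoxia. Normoxia array 1 reached the lower end of the hypoxia values, and the other 4 controls lay below all of them. The rise was 0.32 (SE 0.09, limma adjusted p = 0.0366). Its other probe sets measured 0.50 (adjusted p = 0.0605) and 0.013.

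Pdia6 encodes a protein disulfide isomerase, which forms and rearranges disulfide bonds. It measured 10.18, 10.16, 9.73, 9.92 and 10.15 under normoxia and 10.47, 10.70, 10.32, 10.60 and 10.20 under hypoxia. The groups did not overlap, although hypoxia array 5 was close to normoxia array 1. The rise was 0.43 (SE 0.11, 1.35 times, limma adjusted p = 0.0283), while its dimmer probe set measured -0.19 (adjusted p = 0.321) and the mean of both differed by 0.12 (adjusted p = 0.206). Calr and Pdia6 each lost the call when any of normoxia arrays 3 and 4 or hypoxia arrays 1, 2 and 4 was left out (adjusted p up to 0.0678 and 0.0745). Canx lost it when any of normoxia arrays 2 to 4 or hypoxia arrays 1 to 4 was left out (adjusted p up to 0.0966).

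Hspa5 encodes BiP, the HSP70 of the ER and the usual indicator of ER stress. It measured 12.59, 12.50, 12.23, 12.16 and 12.43 under normoxia and 12.69, 12.99, 12.41, 12.82 and 12.40 under hypoxia. Hypoxia arrays 3 and 5 lay within the normoxia range. The difference was 0.28 (SE 0.12, limma adjusted p = 0.137), and its second probe set also measured 0.28 (adjusted p = 0.0890).

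The remaining ER chaperones and quality control genes did not pass. Pdia3, a disulfide isomerase that works with calreticulin and calnexin, had the largest difference of these at 0.51 (SE 0.19, limma adjusted p = 0.0861). The ER HSP90 gene Hsp90b1 measured 0.17 (SE 0.09), Pdia4 0.21 (SE 0.11), the BiP co-chaperones Dnajc3 0.14 (SE 0.09) and Dnajb9 0.026, and the stress-induced genes Sdf2l1 0.23 (SE 0.10), Creld2 -0.083, Manf 0.070 and Herpud1 -0.013. Their adjusted p ran from 0.122 to 0.942.

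None of the members that encode transcription factors of the response or belong to its PERK arm passed. Xbp1, whose spliced and unspliced forms are not told apart here, measured 0.25 on its brightest probe set (SE 0.12, limma adjusted p = 0.169) and 0.078 after quantile normalization. Its other 3 probe sets measured 0.073, 0.12 and -0.27, the last of which passed after quantile normalization (-0.38, adjusted p = 0.0376), and the mean of all 4 differed by 0.045. Xbp1 is also abundant in plasma cells. Of 5 measured B and plasma cell markers, 3 were higher under hypoxia (Cd79a, Cd79b and Ms4a1), and the summed level was 11.0 to 12.2 under normoxia and 11.4 to 12.4 under hypoxia. Jchain, which marks plasma cells, measured -0.87 (limma adjusted p = 0.157). The part of these cells in the value of Xbp1 was not tested.

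Atf6 measured 9.09, 9.02, 9.04, 9.00 and 9.20 under normoxia and 8.90, 8.99, 8.92, 8.81 and 8.79 under hypoxia. All hypoxia arrays were below all normoxia arrays, but the difference of -0.19 (SE 0.06) missed the threshold (limma adjusted p = 0.0688). It passed after quantile normalization (-0.26, adjusted p = 0.0104). Atf4 (0.018), Ddit3 (-0.083), the CHOP target Trib3 (0.022) and the ATF4 target Asns (0.048) had adjusted p from 0.409 to 0.908.

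Non-overlap of the 5 and 5 arrays was found for 4 members higher under hypoxia (Dnajb4, Hspa9, Calr and Pdia6) and for 2 lower (Hspa2 and Atf6). Over all genes 5.76% and 2.85% were separate in these directions.

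Some ER genes varied together with Hspa5 between animals of the same group, in 4 of 11 pairs tested. With group means removed, Calr followed Hspa5 over the 10 arrays with r = 0.99 (exact permutation p = 0.000139, adjusted p = 0.00236 over 17 pairs) and rho = 0.98 (exact permutation p = 0.000278). No other gene of the 12393 had a higher r with Hspa5. Pdia6 followed with r = 0.92 (exact permutation, adjusted p = 0.00944) and rho = 0.93 (exact permutation p = 0.000764). Creld2, with r = 0.87 and rho = 0.89 (exact permutation p = 0.00799 and 0.00590), and Dnajc3, with r = 0.84 and rho = 0.84 (exact permutation p = 0.00847 and 0.00292), each had an adjusted p of 0.0288 for r.

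The other 7 pairs did not pass. Hsp90b1, Manf, Pdia4, Dnajb9 and Xbp1 had r of 0.77, 0.76, 0.68, 0.56 and 0.50, Sdf2l1 0.31 and Herpud1 -0.013. Without hypoxia arrays 2 and 4, the 2 farthest from the median of Hspa5, r was 0.98 for Calr, 0.86 for Pdia6, 0.71 for Creld2 and 0.71 for Dnajc3. After quantile normalization it was 0.98, 0.78, 0.96 and 0.77, and Dnajc3 no longer passed (exact permutation, adjusted p = 0.184). Manf passed there instead (r = 0.79, exact permutation, adjusted p = 0.0491). Without normoxia arrays 2 to 4 r was 0.99, 0.97, 0.92 and 0.82 for Calr, Pdia6, Creld2 and Dnajc3 over 7 arrays, where 0 pairs passed. When normoxia array 1, 2 or 4 or hypoxia array 2 was left out, 2 ER pairs passed (exact permutation, adjusted over the pairs). Over all genes the median r with Hspa5 was 0.14, and 0.492% and 0.880% of all genes reached the r of Creld2 and Dnajc3.

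**Figure D3:**
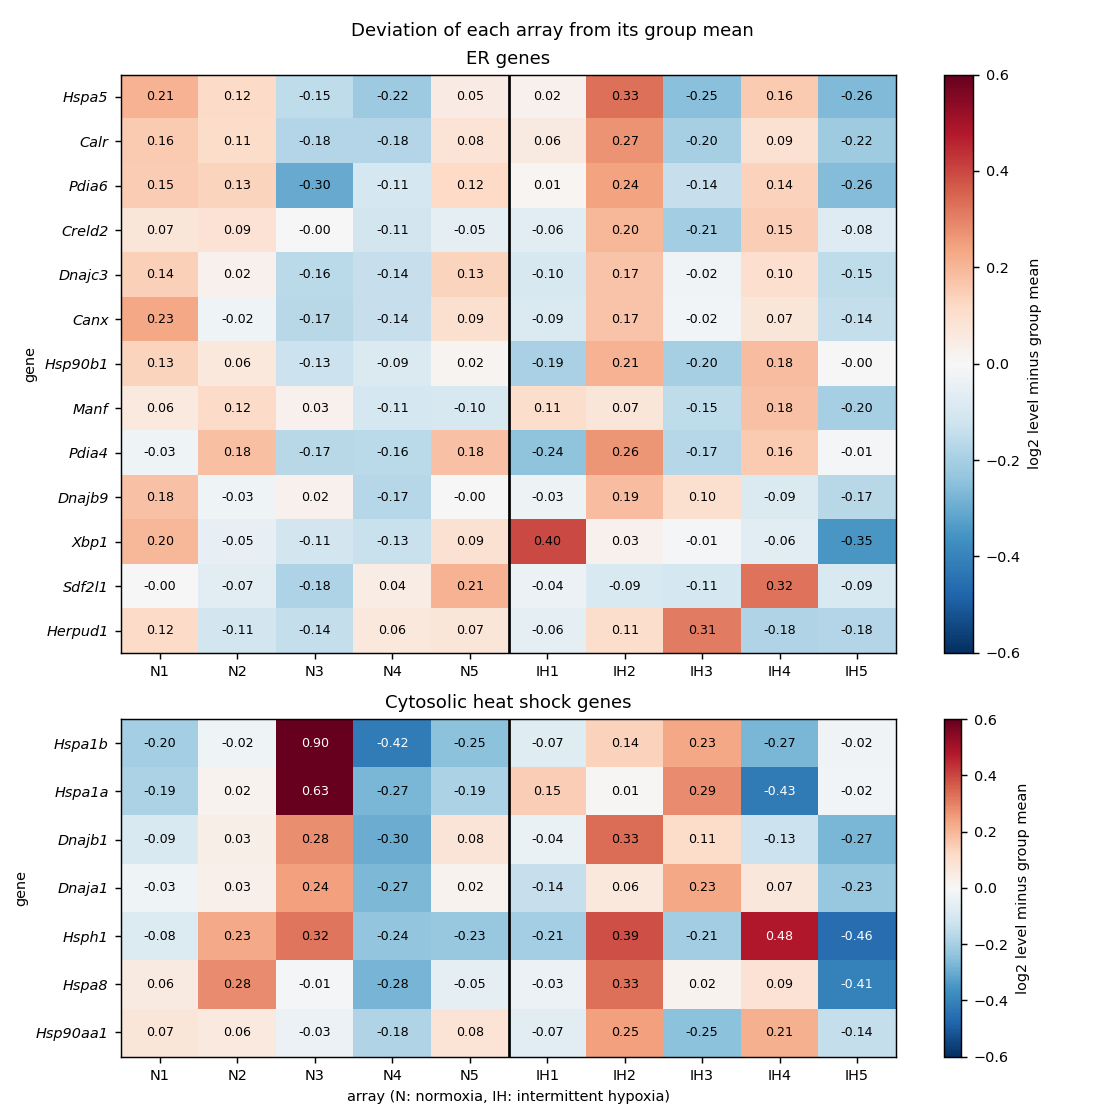
Log2 level of each array minus the mean of its group for 13 ER genes (top) and 7 cytosolic heat shock genes (bottom). Columns are arrays (N1 to N5 normoxia, IH1 to IH5 intermittent hypoxia), numbers give the deviation, and colours are clipped at 0.6 in each direction. Hspa5, Calr and Pdia6 are high together on hypoxia array 2 and low together on normoxia arrays 3 and 4 and hypoxia arrays 3 and 5. Normoxia array 3 is instead the highest for Hspa1b (0.90) and Hspa1a (0.63).

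Several of the ER genes that followed Hspa5 share a promoter sequence. The ER stress element, CCAAT and CCACG with any 9 bases between them, on either strand, is the site known to bind ATF6 and XBP1 together with NF-Y, and it was first described from promoters of ER chaperone genes, so its presence in them is background. It was found in the 250 bases before the start of 7 of the 30 members with a window, and of 0.130% of all 27025 genes with a window. The 7 are Hspa5, Hsp90b1, Dnajc3, Calr, Canx, Pdia6 and Creld2. The stretches below show the element in capitals with 20 bases on each side, 5′ to 3′ towards the gene, so that the spacing of its ends can be compared. Where the element lies on the opposite strand the capitals begin with CGTGG and end with ATTGG. Hsp90b1 has 2 copies.
Hspa5: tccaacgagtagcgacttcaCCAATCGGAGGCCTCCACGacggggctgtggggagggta
Calr: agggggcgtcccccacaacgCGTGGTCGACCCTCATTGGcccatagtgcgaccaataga
Canx: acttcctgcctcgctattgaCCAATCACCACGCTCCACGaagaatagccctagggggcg
Pdia6: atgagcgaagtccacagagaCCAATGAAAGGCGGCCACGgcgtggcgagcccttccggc
Creld2: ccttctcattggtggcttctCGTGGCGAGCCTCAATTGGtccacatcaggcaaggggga
Dnajc3: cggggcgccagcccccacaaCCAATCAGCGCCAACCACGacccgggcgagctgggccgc
Hsp90b1: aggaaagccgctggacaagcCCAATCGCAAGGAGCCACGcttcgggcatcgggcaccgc
Hsp90b1: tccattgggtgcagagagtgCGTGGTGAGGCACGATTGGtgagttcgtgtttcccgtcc
In RefSeq GRCm38.p6 these lie at chr2:34772005-34772063 (Hspa5, plus strand), chr8:84847055-84847113 (Calr, minus), chr11:50325780-50325838 (Canx, minus), chr12:17266471-17266529 (Pdia6, plus), chr15:88819500-88819558 (Creld2, plus) and chr14:118937807-118937865 (Dnajc3, plus). The copies of Hsp90b1 lie at chr10:86705618-86705676 and chr10:86705513-86705571 on the minus strand. The element begins 65 bases before the transcription start in Hspa5, 162 in Calr, 145 in Canx, 98 in Pdia6, 126 in Creld2 and 105 in Dnajc3, and 212 and 107 bases before it in Hsp90b1.

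All 3 ER members that rose (Calr, Canx and Pdia6) are among the 7. Hspa5, Hsp90b1, Dnajc3 and Creld2 carry the element and did not pass. The 6 members with it other than Hspa5 had r with Hspa5 between 0.77 and 0.99, with a median of 0.86. Of all genes 2.79% had r at or above that of Hsp90b1, the lowest of the 6. Canx, which was not among the 11 pairs chosen for testing, had r = 0.81. The 12 ER members without the element, or with no window, had r between -0.35 and 0.76, with a median of 0.40. After quantile normalization r was 0.65 for Hsp90b1, 0.77 for Dnajc3, 0.78 for Pdia6, 0.96 for Creld2 and 0.98 for Calr. Of the 12, Manf and Pdia4 had 0.79 and 0.59 there, and the others tested had -0.59 to 0.22. Mean levels ran from 8.65 to 12.29 for the 6 and from 6.29 to 12.13 for the 12, and the part of level was not tested. The element alone did not mark genes that followed Hspa5. On the deposited levels, the 10 measured genes that carry it and are no members had r between -0.39 and 0.50, with a median of 0.0097. Of these 1 was called lower and none higher. Among the 10 are Derl3 and Syvn1 of ER-associated degradation (r = -0.073 and -0.083) and the ER folding enzyme gene Ero1b (r = 0.36). These values across genes are a description, since the genes share arrays and are not independent.

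Over the whole array the difference between groups varied with the level of the gene, and only 3 members lie below a level of 8. The median difference of all genes was -0.055 at a mean level of 6 to 8, 0.066 at 8 to 10, 0.15 at 10 to 12 and 0.13 at 12 and above. The members in these ranges numbered 3, 14, 13 and 6 and had medians of 0.022, -0.034, 0.14 and 0.25. At a level of 10 to 12, which holds Dnajb4, Canx and Pdia6, 19.1% of all genes were called higher. At 8 to 10, which holds Hspa2, Hsph1, Hspa4 and Hspa9, 12.3% were called higher and 3.43% lower. After quantile normalization all these medians of all genes lay between -0.028 and 0.017.

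**Figure D4:**
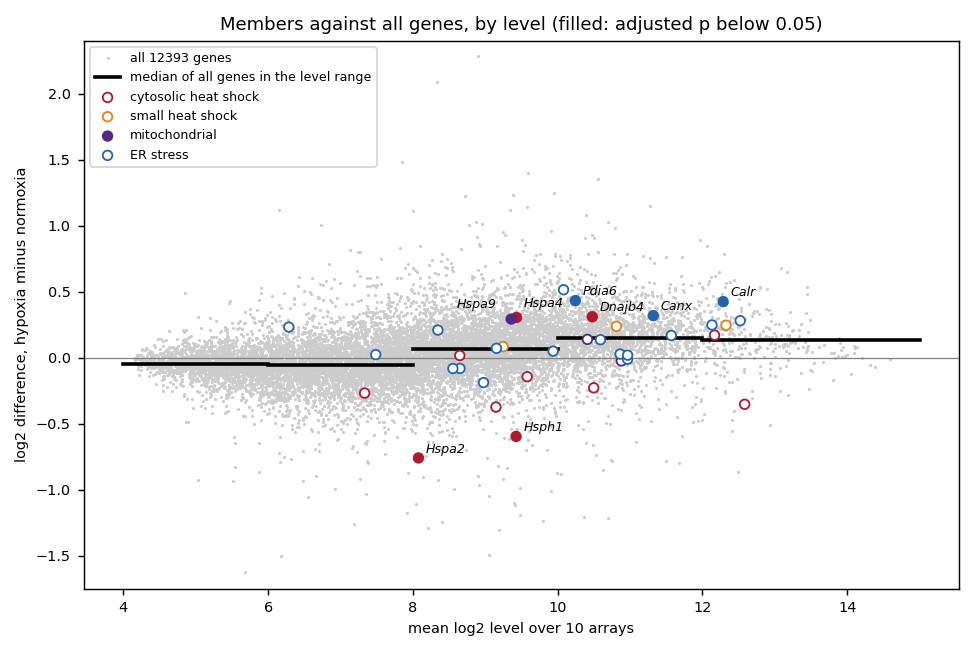
Difference in log2 level, intermittent hypoxia minus normoxia, against the mean log2 level over the 10 arrays for all 12393 genes (grey) and the 36 members (coloured by group, filled where they passed). Black bars give the median of all genes in each range of level, which is -0.055 at 6 to 8 and 0.15 at 10 to 12. Hspa2 and Hsph1 lie well below the grey median at their level.

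Genes of the same pathways outside the 38 were read from lists of 141 symbols, of which 125 were measured. Of these 15 rose and 3 fell, with a median difference of 0.089, where 8.93% and 3.6% of all genes were called higher and lower. After quantile normalization 7 rose and 5 fell, and the median was -0.0060. The list of other ER chaperones and folding enzymes had 6 of 20 measured genes higher, none lower and a median of 0.17. Among them Sil1, the exchange factor of BiP, rose by 0.35 (SE 0.07, limma adjusted p = 0.0133), the ER prolyl isomerase gene Fkbp2 by 0.36 (SE 0.09, limma adjusted p = 0.0220), and Ganab, a subunit of the glucosidase that trims glycans for calnexin and calreticulin, by 0.35 (SE 0.09, limma adjusted p = 0.0280). After quantile normalization 4 of the 20 were higher and none lower. Of 17 measured genes of ER-associated degradation none passed, with a median of 0.15 (-0.0041 after quantile normalization). Among 15 measured sensors and regulators of the response 1 rose, Creb3 (0.30, limma adjusted p = 0.0436). After quantile normalization Creb3 differed by 0.15 (limma adjusted p = 0.130).

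In the cytosol and mitochondria, the 28 measured co-chaperones had 2 higher and 1 lower. Fkbp5, an HSP90 co-chaperone of steroid receptors and itself induced by glucocorticoids, fell by 1.12 (SE 0.14, limma adjusted p = 0.00174). Cdc37, which brings kinases to HSP90, rose by 0.58 (SE 0.15, limma adjusted p = 0.0257), and Dnajc5 by 0.23 (limma adjusted p = 0.0294). All 8 subunits of the chaperonin CCT, which folds actin and tubulin, had positive differences with a median of 0.20, and 2 of them passed: Cct7 (0.30, limma adjusted p = 0.0447) and Cct8 (0.24, limma adjusted p = 0.0440). After quantile normalization the median was 0.045 and none passed.

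Of 11 other genes of mitochondrial protein quality control 2 rose and none fell. Grpel1, the nucleotide exchange factor of mortalin, rose by 0.62 (SE 0.15, limma adjusted p = 0.0201), and Atf5, a transcription factor of the mitochondrial stress response, by 0.27 (limma adjusted p = 0.0403). None of 5 other small heat shock genes passed. Among 21 targets of ATF4 and CHOP 2 rose and 2 fell. Ddit4, an inhibitor of mTORC1 that glucocorticoids also induce, fell by 1.31 (SE 0.16, limma adjusted p = 0.00144), and the serine synthesis gene Psat1 rose by 0.40 (limma adjusted p = 0.0386). Wars, a tRNA synthetase gene, rose by 0.33 (limma adjusted p = 0.0449). Of the 14 genes named from these lists as passing, 6 were lost after quantile normalization (Dnajc5, Cct7, Cct8, Atf5, Creb3 and Wars). The replicate block lost 7, leaving out normoxia array 3 or 4 lost 11, and leaving out normoxia arrays 2 to 4 lost all 14. None reversed. Over the mean of its probe sets Ganab differed by 0.20 (limma adjusted p = 0.140) and Cct8 by 0.082 (limma adjusted p = 0.245).

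Of 11 clock and cold-inducible genes 3 were higher and 2 lower, among them Nr1d1 at 2.29 and the cold-inducible Cirbp at 0.53 (limma adjusted p = 0.0357). Of 12 immediate early genes 1 was higher, with summed levels of 14.9 to 15.7 under normoxia and 14.9 to 15.5 under hypoxia. The part of what moved these genes in the values of Hspa2, Hsph1 and the other heat shock genes was not tested.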

How the data were processed

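The authors deposited log2 probe set levels for 10 arrays, made with RMA and affy per the submitters' processing notes, which give no version. Whether all arrays were normalized together is not given in the sources used here. All 22626 probe sets were kept, of which 20380 had 1 symbol, 691 several and 1555 none in the platform annotation.

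The groups were compared with limma 3.58.1 (lmFit, eBayes) under R 4.3.3. Tests were two-sided, p was adjusted by Benjamini and Hochberg's method across every probe set, and a gene passed below 0.05. These p-values weigh the difference between groups against the spread between arrays of the same group, with 1 array per animal. Precision is limited by the number of arrays. Correlations within groups used exact permutation over 14400 pairings, two-sided, adjusted over 17 pairs (scipy 1.17.1). Values on every array are given for members that passed and for the 3 smallest p of each member group. Array values of Hspa1b, Hspa5 and Atf6 were added after they were seen. In each other list up to 3 passing genes are named. The members and lists were chosen with earlier results of these data known.

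Alternatives were SAM with 100 permutations (the test in the series' design text), quantile normalization, median centring, a filter at the median level, trend and robust eBayes, averaging the probe sets of a gene, arrayWeights, a threshold of 0.10, a replicate block and leaving out each array. Leaving out normoxia arrays 2 to 4 was added after the data were seen. On simulated data limma recovered 73% of probe sets shifted by 0.5 and 95% of those shifted by 1 among 200, with 3.45% of 174 calls false. The simulated noise was independent for each probe set and array. Array-wide differences such as those of normoxia arrays 2 to 4 were not simulated, so the false share may differ in the real data.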

Additional observations from a re-analysis of the deposited data

Results flagged for a closer look

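Of 72 groups of 5 arrays tested among the members, 1 held an array far from the other 4. Sdf2l1, an ER gene induced by unfolded proteins, measured 6.73 on hypoxia array 4 and 6.29 to 6.36 on the other hypoxia arrays, a gap of 0.839 of the group's range against a critical value of 0.71. Chance sets apart about 1 in 20 such groups.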

How the results depend on the processing

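None of the 8 members that passed reversed under any alternative. SAM called 6645 probe sets (2699 in limma), with 8 members higher and 4 lower. The 4 members that passed with SAM and not with limma were Hspa8, Atf6, Pdia3 and Sdf2l1 (SAM adjusted p = 0.0368, 0.0146, 0.0407 and 0.0483). An adjusted p below 0.10 called 4954 probe sets, with 7 members higher and 4 lower. ArrayWeights called 4132 probe sets, and trend and robust eBayes 1 member lower. The replicate block called 1755 probe sets and kept 6 of the 8 members (Hspa9 and Canx lost). With group means removed, same-numbered arrays had correlations of 0.06, 0.22, -0.12, 0.15 and -0.24. Hypoxia arrays 1, 2 and 4 each correlated best with the normoxia array of the same number, and of the normoxia arrays only array 2 did so in return. These values do not settle whether the replicate numbers of the block pair arrays. Quantile normalization left 1 member higher and 5 lower, and 3 heat shock pairs passing where 1 did before. Without normoxia arrays 2 to 4, 16 probe sets, 0 members higher, 1 lower, 0 heat shock pairs and 0 ER pairs passed, over fewer arrays. Averaging each gene's probe sets left 2 ER pairs and 5 of the 8 members, with Hspa4, Hspa9 and Pdia6 lost, while Hspa8 (-0.30, adjusted p = 0.0425) and Cryab (0.25, adjusted p = 0.0436) passed. Leaving out 1 array gave 1003 (normoxia 4) to 4800 (normoxia 5) probe sets, 0 to 7 members higher, 1 to 2 lower, 0 to 3 heat shock pairs and 2 to 5 ER pairs. The cause was not tested.

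Reversals concerned members that had not passed. After quantile normalization these were Hspa14 (-0.036), Hspb8 (-0.0078), Hspe1 (-0.024), Dnajb9 (-0.13), Dnajc3 (-0.027), Manf (-0.020), Atf4 (-0.13) and Asns (-0.10). Without normoxia arrays 2 to 4 they were Hspa14 (-0.068), Dnajb9 (-0.060), Dnajc3 (-0.0024) and Atf4 (-0.0012), and over the mean of probe sets Herpud1 (0.00096) and Atf4 (-0.023). Leaving out 1 array moved Atf4 from -0.041 to 0.064, Dnajb9 from -0.021 to 0.070, Herpud1 from -0.090 to 0.033, Hspa14 from -0.013 to 0.047, Hspd1 from -0.077 to 0.0076 and Trib3 from -0.011 to 0.054.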

Other observations

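The E-box CACGTG, which reads the same on both strands, occurred in the 250 bases before the start of 4 of 30 members. Of all 27025 genes with a promoter window 6.86% had it. The 4 members were Hsph1, Hspd1, Dnajb9 and Calr, whose differences were -0.60, -0.026, 0.026 and 0.42, so genes with this sequence differed in both directions. The amino acid response element TGATGCAA, searched on both strands, occurred before 1 member, Herpud1 (difference -0.013), and before 0.918% of all genes with a window.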
